A study of Mus musculus with 18 samples.

Results

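The members described here are 5-methylcytosine (m5C) sites in the 5' untranslated region (5' UTR) of mouse mRNA, the stretch between the transcript start and the start codon. A site was taken when its base lay on the strand of a protein-coding RefSeq transcript, before the first base of the start codon, and in no coding sequence (CDS) of another transcript of the gene. Of the 25890 distinct sites listed in 9 bisulfite libraries, 3516 met this rule, or 13.6%, and they lay in 807 of 21710 annotated protein-coding genes. For comparison, 13034 of the distinct sites lay in a CDS and 1684 in a 3' UTR. All 25890 sites lay on a cytosine of their own strand in mm10. Of the 5' UTR sites, 3325 (94.6%) also lay in the 5' UTR of a curated RefSeq transcript and 3319 (94.4%) in a GENCODE 5' UTR, while 30 lay in a GENCODE CDS and 165 in no GENCODE mRNA exon. Only 8 sites lay in the 5' UTRs of 2 genes at once.

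The study treated RNA with bisulfite, which converts unmethylated cytosine, and sequenced it to ask how m5C in mRNA changes when cells lose and regain oxygen and glucose. The cells were primary cultures from the cerebral cortex of C57BL/6 mice at embryonic day 18, labelled as neurons. The control group was left untreated. The groups OGD/R 1.5 h and OGD/R 3 h were kept in glucose-free medium under hypoxic conditions for 1.5 h or 3 h and then in normal medium for 24 h. Each group has 3 bisulfite libraries, which the study calls sequencing pools, and whether they come from separate cultures is not stated. The 3 libraries of a group are therefore counted as 1 sample, their standard deviation describes the spread of libraries, and no test between groups was made. Each file lists the sites that passed the minimum level and coverage set by the authors, with a score from 0 to 1000. The score grows with both coverage and methylation level, which means that a score alone gives no level, and the depth behind a site is unknown. Each list was made from a bisulfite library and its unconverted mock library. An input library was aligned separately by the authors, and how the mock library entered the site list is not stated. Why a site is not listed in a library therefore cannot be told, and a missing site is not a level of 0.

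The 5' UTR is where the small ribosomal subunit, having bound near the cap, scans toward the start codon, and its folding and its upstream open reading frames affect how often a start codon is reached. In mRNA, m5C is placed mainly by the methyltransferases NSUN2 and NSUN6, and proteins such as ALYREF and YBX1 bind it. Bisulfite signal can also come from cytosines held in stable base pairs, which convert poorly, and this is a known property of the method.

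The label was compared with marker genes. None of 18 neuron markers carried an mRNA site in any library, in the 5' UTR or elsewhere, and neither did any of 6 oligodendrocyte or 6 microglia markers. For comparison, 2625 of the 21710 annotated genes, or 12.1%, carried one, and the lists were not tested against this share. Of 7 astrocyte markers 2 carried an mRNA site, and none of those sites lay in a 5' UTR. In contrast, 18 of 19 markers of intestinal epithelium carried an mRNA site and 7 of them a 5' UTR site. Their summed score over all mRNA sites was 33367, 38238 and 32845 in the control libraries, 18267, 17101 and 18081 in OGD/R 1.5 h and 54795, 47368 and 52016 in OGD/R 3 h. Of 7 erythroid markers 2 carried sites, in OGD/R 3 h alone, with a summed score of 31000 in each of its libraries and 0 in the other 6. Of 11 markers of neutrophils and bone marrow 4 carried sites, with summed scores of 27610, 27872 and 28208 in OGD/R 3 h, then 111, 31 and 51 for control and 0 in each OGD/R 1.5 h library. Of 10 smooth muscle and fibroblast markers 7 carried an mRNA site. The marker genes that carried 5' UTR sites are described with the other gene lists. A gene without a listed site can still be expressed, and the sites alone do not show which cells the RNA came from, so the RNA is not called neuronal here. The study stained its cultures for beta-III tubulin, a neuronal protein, and for GFAP, an astrocyte protein. With methylated RNA immunoprecipitation the study also reported Anxa1, Hbb-bs and Cyba among the transcripts higher after OGD/R, the direction of its sequencing. These genes had their 5' UTR sites only or mainly in OGD/R 3 h here. Its text names Prr15 as higher too, where its primer list has Prr13. A site of Prr15 scored lower in OGD/R 3 h here. The number of listed Prr15 sites in the 5' UTR was higher, with 3, 2 and 2 in the control libraries and 5 in each OGD/R 3 h library. Whether the deposited files belong to the labelled samples cannot be told from the site lists, and every comparison of groups below takes the labels as given. The part of the other cell types in the results was not tested, and the number of sites is also given without their marker genes. In bulk RNA, fewer cells of a type and less RNA per cell cannot be told apart.

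The sequences that the results turn on are shown first, as mm10 gives them on the gene's own strand, 5' to 3'. The first set holds sites listed in all 9 libraries, with 10 bases on either side and the methylated cytosine as the capital letter. The sites of Ctnnd1 (chr2:84650510-84650530, minus strand), Apob (chr12:7977723-7977743, plus strand), Ppp3ca (chr3:136670267-136670287, plus strand) and Prr15 (chr6:54327005-54327025, plus strand) are among the 6 with the highest median score. The sites of Rps3 (chr7:99483618-99483638, minus strand) and Gna11 (chr10:81544919-81544939, minus strand) are shown because the start codon lies in the printed window, 7 and 2 nt after the site.
Ctnnd1: aggaaagatcCtggaacgagg
Apob: ggggctaggcCcgtggccagg
Ppp3ca: tgccgcggccCcggcggcgcc
Prr15: gaagaaaggaCgcgccctaga
Rps3: cggcgcgcggCtgcaagatgg
Gna11: aggaccgcgaCgatgactctg

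The second set shows the single sites whose scores differed most in each direction between control and a treated group, in Pafah1b1 (chr11:74724278-74724298, minus strand), Prr13 (chr15:102459220-102459240, plus strand), Ggt1 (chr10:75573623-75573643, plus strand) and Tbc1d10a (chr11:4186867-4186887, plus strand).
Pafah1b1: agtgagggagCgaaggagcag
Prr13: agaaggaggaCaggagcgggc
Ggt1: gtagcctgctCtagcagttca
Tbc1d10a: gctctggtggCgggcgcggcc

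The third set shows 29-nt windows of 5' UTRs with many neighbouring sites, where each capital is a cytosine listed in all 3 OGD/R 3 h libraries. These windows were chosen after their values were seen. They lie in Hbb-bs (chr7:103827876-103827904), S100a9 (chr3:90695668-90695696), Anxa1 (chr19:20390641-20390669), Rabggtb (chr3:153912127-153912155) and Tmsb4x (chrX:167209108-167209136), all on the minus strand.
Hbb-bs: gttgaCtCaCaaCCCCagaaaCagaCatC
S100a9: ttaccaaCatCtgtgaCtCtttagCCttg
Anxa1: CtgaaaCCatCtgagCagagtCtctcttc
Rabggtb: CaCtttagCtCtagaattaCtCtgagaCC
Tmsb4x: CagaCtCtCCtCgttCgCgCagCtCgCtC

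The number of 5' UTR sites differed between the groups by more than the spread of their libraries, and it was lowest after 1.5 h and highest after 3 h. The control libraries listed 954, 894 and 888 of them, the OGD/R 1.5 h libraries 679, 636 and 631, and the OGD/R 3 h libraries 1290, 1197 and 1314. The means were 912 ± 36.5, 649 ± 26.4 and 1267 ± 61.8 (SD, 3 libraries), and no library of one group fell within the range of another. The log2 ratio to control was -0.49 for OGD/R 1.5 h and 0.47 for OGD/R 3 h. Both comparisons use the same control libraries. Without the marker genes of cell types other than neurons, a setting chosen after seeing the data, the ratios were -0.49 and 0.43. Some other settings moved them further. The ratio of OGD/R 3 h was 0.74 with a score of at least 10, and 0.31 without 12 genes dense in sites, those with at least 25% of their 5' UTR cytosines listed in all 3 libraries of a group, which were also chosen after seeing the data. That of OGD/R 1.5 h was -0.0099 when only sites without a neighbour within 10 nt were counted.

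As a share of all mRNA sites of a library, the 5' UTR sites made up 22.8 ± 1.43% in control, 17.8 ± 1.24% in OGD/R 1.5 h and 25.7 ± 1.67% in OGD/R 3 h (± SD over 3 libraries). The control libraries ranged from 21.3% to 24.1% and the OGD/R 3 h libraries from 24.4% to 27.6%, so these groups lie close to each other. The excess of OGD/R 3 h over control was 2.90 percentage points. It was 1.09 points without the 12 dense genes and 0.966 points over genes with an mRNA site in every group, both settings chosen after seeing the data. Both of these values were less than the spread of the libraries. The difference of OGD/R 1.5 h from control was -4.98 points, and among sites without a neighbour within 10 nt it was -0.659 points, less than the spread of the libraries. The CDS held 68.6%, 73.3% and 64.1% of the mRNA sites in the 3 groups and the 3' UTR 8.60%, 8.89% and 10.1%.

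**Figure D1:**
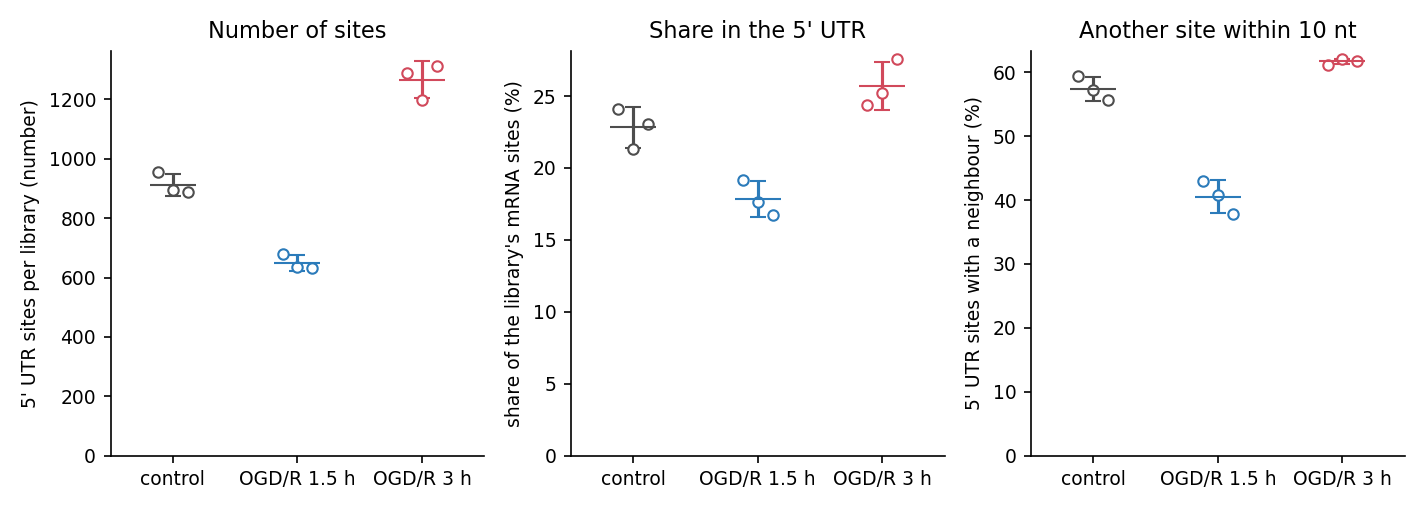
Number of 5' UTR sites, their share of the mRNA sites of a library in percent, and the percent with another site within 10 nt, by group, with points for libraries and lines for the mean and SD of 3 libraries. In each panel the OGD/R 1.5 h libraries lie lowest and the OGD/R 3 h libraries highest.

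The groups differed less in the number of genes than in the number of sites. Control libraries had 5' UTR sites in 384 ± 5.51 genes, OGD/R 1.5 h libraries in 326 ± 7.77 and OGD/R 3 h libraries in 413 ± 18.2 (SD, 3 libraries), with log2 ratios to control of -0.23 and 0.11. The ratio of OGD/R 1.5 h was -0.015 when only sites without a neighbour within 10 nt were kept, and -0.032 over genes with an mRNA site in every group, a setting chosen after seeing the data. It moved the other way, to -0.41, with a score of at least 10 and to -0.35 with sites in at least 2 libraries. The ratio of OGD/R 3 h was 0.26 with a score of at least 10 and 0.28 over genes with an mRNA site in every group. Without the 12 genes dense in sites, also chosen after seeing the data, it was 0.070, about the spread of the libraries. A gene with a site carried 2.38 of them on average in control, 1.99 in OGD/R 1.5 h and 3.07 in OGD/R 3 h. A single site was found in 42.7%, 55.9% and 38.4% of these genes, and over 8 sites in 10.7, 5.33 and 24.3 genes per library. In OGD/R 3 h the 5' UTRs thus had more listed sites per gene, and in OGD/R 1.5 h a larger share of them held a single listed site. The depth is unknown, so these counts do not give the extent of methylation.

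The groups also differed in how close their sites stand. Another listed site lay within 10 nt of 57.4 ± 1.85% of the 5' UTR sites in control, of 40.5 ± 2.57% in OGD/R 1.5 h and of 61.7 ± 0.466% in OGD/R 3 h (± SD over 3 libraries). The same shares were 44.3%, 39.9% and 47.8% in the CDS and 39.1%, 38.6% and 48.8% in the 3' UTR. Counting isolated 5' UTR sites alone, control libraries had 388 and OGD/R 1.5 h libraries 385 on average, a log2 ratio of -0.0099, and OGD/R 3 h libraries had 486, a log2 ratio of 0.32. Fewer listed sites leave more of the rest isolated, so these ratios depend on the number of sites and do not show where the groups differ.

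Scores of 5' UTR sites were low in all groups. The median score per library was 6.33 ± 1.15 in control, 6.33 ± 0.577 in OGD/R 1.5 h and 9.67 ± 0.577 in OGD/R 3 h (± SD over 3 libraries). A score under 10 was given to 57.9%, 59.1% and 49.4% of the sites, and the highest possible score of 1000 to 0.334%, 2.32% and 6.33%. In the CDS the medians were 8, 5.67 and 9.67, and in the 3' UTR they were 53.7, 39.3 and 40.3. Sites listed in all 3 libraries of a group had medians of 9, 8.67 and 11 in the 3 groups, and those listed in 1 library had 3.67, 3.67 and 3.33. With a neighbour within 10 nt the medians were 7.67, 8 and 12.3, and without one they were 5.5, 5 and 6.33. Low scores thus went with isolated sites and with sites that were listed once.

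Within the 5' UTR, sites lay toward the start codon. The median spliced distance from a site to the start codon was 81 nt over all 3516 sites, against 212 nt over the 90740 cytosines of the same 5' UTRs. The 100 nt before the start codon held 58.3% of the sites and 27.3% of the cytosines. For each 1000 cytosines there were 108 sites at 1 to 25 nt before the start codon, 86.2 at 26 to 50 nt, 67.2 at 51 to 100 nt, 37.9 at 101 to 200 nt, 24.3 at 201 to 400 nt and 9.43 farther away. This order of densities was found in the sites of each group taken alone. When each 5' UTR was divided into 3 parts of equal length, the density went from 18.0 sites per 1000 cytosines in the part at the transcript start to 38.9 in the middle and 59.6 at the start codon. The sites also lay in shorter 5' UTRs than the cytosines did, with medians of 279 and 448 nt, which bears on every distance given here.

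From the other end, few sites lay close to the transcript start. The first 10 bases of the transcripts held 33 sites at 2328 cytosines, or 14.2 per 1000, and the first base held 1 site at 144 cytosines. The density was 23.4 per 1000 at 10 to 24 nt from the start, 36.1 at 25 to 49 nt, 54.0 at 50 to 99 nt, 59.2 at 100 to 199 nt and 44.7 at 200 to 399 nt, and it was 15.9 farther inside. The highest density was thus reached 100 to 199 nt from the transcript start. Transcript starts come from the annotation, and the starts used in these cells are not known. All annotated cytosines are counted whether or not reads covered them, and the coverage near transcript starts is unknown. The part of coverage in these densities was not tested. Directly before the start codon 31 sites lay at 391 cytosines. By group the density there was 36.7 per 1000 cytosines in control, 22.9 in OGD/R 1.5 h and 72.9 in OGD/R 3 h, from 8, 5 and 18 sites, against 68.5, 58.1 and 81.1 over the 25 nt before the start codon. The third base before the start codon, rarely a cytosine in these genes, held 3 sites at 53 cytosines.

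The groups differed in these distances in the same way in all of their libraries. The median distance to the start codon was 91, 89 and 94 nt in the control libraries, 80, 84.5 and 83 nt in OGD/R 1.5 h and 71 nt in each of the 3 OGD/R 3 h libraries. The difference from control was -8.83 nt for OGD/R 1.5 h and -20.3 nt for OGD/R 3 h, and the latter was -7.67 nt without the 12 genes dense in sites. The share of sites in the 100 nt before the start codon was 53.6 ± 1.13%, 57.2 ± 0.688% and 61.7 ± 0.336% (SD, 3 libraries). Without the 12 dense genes the medians were 91.3 nt in control, 82.0 nt in OGD/R 1.5 h and 83.7 nt in OGD/R 3 h. Control sites lay farthest from the start codon either way. All 12 genes met their rule in OGD/R 3 h, so leaving them out, here and elsewhere, takes sites mainly from that group by construction. Nothing is therefore read from the changed order of the treated groups. With GENCODE transcripts in place of RefSeq, a setting chosen after seeing the data, the difference of OGD/R 1.5 h from control was -1.67 nt.

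The median distance to the transcript start was 154.5 ± 0.5 nt in control, 165 ± 3.75 nt in OGD/R 1.5 h and 145 ± 1.76 nt in OGD/R 3 h (± SD over 3 libraries). The differences from control were 10.3 nt and -9.33 nt. The first kept its sign under the other settings but ranged from 5.33 nt, with the smallest distance over transcripts and less than the spread of the libraries, to 21.0 nt with GENCODE, which was chosen after seeing the data. The second of these changed sign under 3 of the other settings, and it was 8.33 nt without the 12 genes dense in sites, so no direction of OGD/R 3 h against control is given for this distance.

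**Figure D2:**
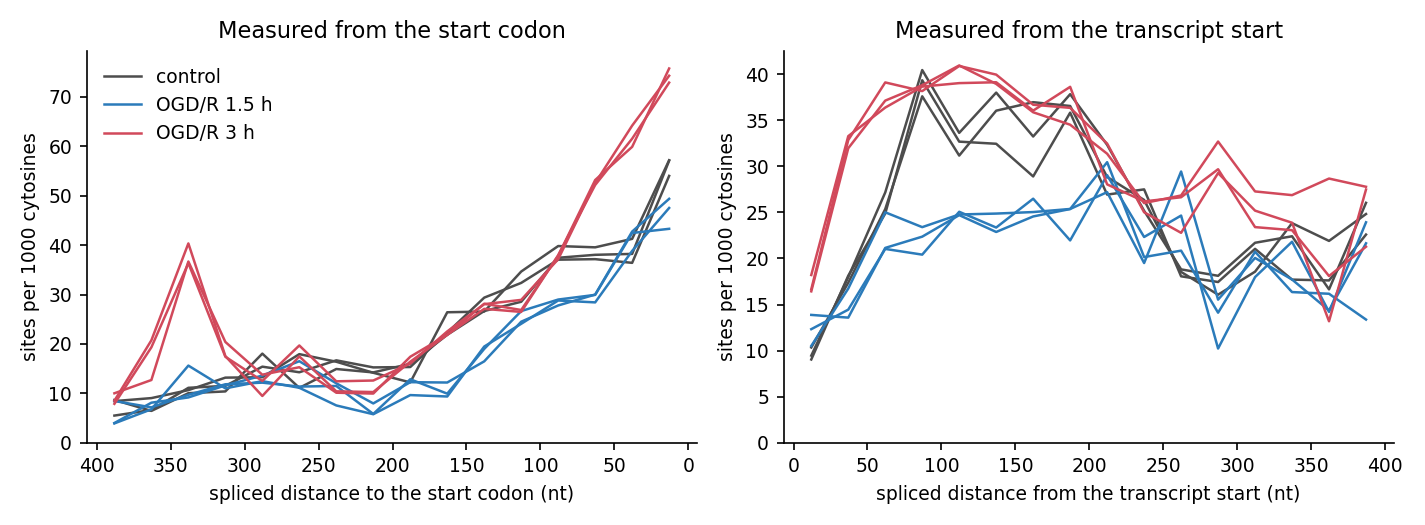
Sites per 1000 cytosines in windows of 25 nt, by spliced distance in nt to the start codon and from the transcript start, with a line for each library over the cytosines of genes with a 5' UTR site. Density is highest next to the start codon in every library, and there the OGD/R 3 h libraries lie above the others.

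Contexts were read on the strand of the site, with H for A, C or T. Over all 5' UTR sites the share of CG was 32.7%, that of CHG 33.8% and that of CHH 33.6%, against 26.4%, 25.7% and 48.0% of the cytosines of the same 5' UTRs. CG and CHG were thus more frequent among sites than among the cytosines around them, and CHH less. In control libraries 36.8 ± 0.311% of the sites were in CG, in OGD/R 1.5 h 32.7 ± 0.693% and in OGD/R 3 h 29.4 ± 0.308% (± SD over 3 libraries). The difference of OGD/R 1.5 h from control, -4.11 percentage points, was -2.02 over genes with an mRNA site in every group, a setting chosen after seeing the data. The shares in CHH were 25.2 ± 0.830%, 30.9 ± 0.543% and 37.9 ± 0.195%, with the groups in the opposite order. Both orders were also found in the means of the other regions. In the CDS the CG shares were 25.4%, 20.5% and 19.5% and the CHH shares 35.1%, 39.3% and 41.8%. In the 3' UTR they were 17.9%, 13.1% and 10.7% for CG and 39.4%, 42.8% and 50.6% for CHH. Relative to the cytosines of the 5' UTRs with a site in the same group, CG was 1.39 times as frequent among control sites, 1.34 times among those of OGD/R 1.5 h and 1.01 times among those of OGD/R 3 h. In OGD/R 3 h the share of CG was therefore close to that of the 5' UTRs themselves, and CHG was still 1.29 times as frequent.

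The context did not follow the position in the 5' UTR closely. At 1 to 100 nt before the start codon 32.1% of the sites were in CG and 35.3% in CHH, and farther away the shares were 33.4% and 31.2%. Among all cytosines CG made up 28.6% near the start codon and 25.5% farther away. The order of the groups was present on both sides, with CG at 37.7%, 33.1% and 27.4% near the start codon and at 36.4%, 33.8% and 29.8% farther away, from control over OGD/R 1.5 h to OGD/R 3 h.

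The 20 bases around a site were rich in guanine. Guanine made up 37.7% of them against 31.8% around all cytosines of these 5' UTRs, cytosine 32.4% against 33.0%, adenine 16.5% against 16.7% and thymine 13.4% against 18.5%. In the control sites guanine stood at 41.6% against 32.3% and cytosine at 27.7% against 32.5%. In the OGD/R 3 h sites guanine stood at 35.03% against 32.2% and cytosine at 35.4% against 34.9%. The excess of guanine was thus larger in control than in OGD/R 3 h. The letters CNGGG, with the site as the first base, which are known from NSUN2 targets, were found at 115 sites or 3.27%, and at 3.51% of all these cytosines. The letters CTCCA, known from NSUN6 targets and also read with the site first, were found at 12 sites or 0.341%, and at 0.450% of the cytosines. By group CNGGG was found at 3.99% of the control sites against 3.75% of the cytosines, while OGD/R 1.5 h had 3.01% against 3.38% and OGD/R 3 h had 3.16% against 3.49%. The shares at sites and at cytosines were thus close, and a match or its absence is a description of letters alone.

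Predicted folding was computed on the 5' UTR with 150 bases of coding sequence. The median probability of being unpaired was 0.252 at the sites and 0.321 at all cytosines of the same 5' UTRs, so sites lay in somewhat more paired stretches. By library it was 0.199 ± 0.00724 in control, 0.250 ± 0.0105 in OGD/R 1.5 h and 0.286 ± 0.00383 in OGD/R 3 h (± SD over 3 libraries), with no overlap between groups. Near the start codon and away from it the medians were alike, at 0.252 and 0.253. These probabilities are predictions from sequence for naked RNA, and the part of base pairing in the calls was not tested.

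Most sites lay in the first exon, at 88.8%, as did 87.9% of the cytosines of these 5' UTRs. An upstream open reading frame, meaning an ATG of the 5' UTR with the codons that follow it up to a stop, covered 15.1% of the sites and 24.7% of the cytosines. Part of this gap goes with distance. At 1 to 25 nt before the start codon the shares were 8.60% and 12.7%, at 101 to 200 nt 14.7% and 19.1%, and beyond 400 nt 25% and 40.7%. At 201 to 400 nt the order was the other way, with 22.6% of sites and 20.02% of cytosines.

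The 807 genes with a site had long and GC-rich 5' UTRs. Their median length was 238 nt against 157 nt over all annotated genes with a 5' UTR, their GC content 67.2% against 60.2%, and their number of cytosines 77 against 46. An upstream ATG was present in 51.9% of them and in 51.1% of all. Genes with sites in OGD/R 3 h alone had an upstream ATG in 43.8%, and genes with sites in control alone in 64.3%, with median lengths of 207.5 and 250.5 nt. Of the 807 genes, 479 (59.4%) also carried a CDS site and 190 (23.5%) a 3' UTR site, and 286 (35.4%) carried no other mRNA site.

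Few single sites were shared between groups, while many were shared between libraries of 1 group. Over the union of its 3 libraries control had 1353 sites, OGD/R 1.5 h 1064 and OGD/R 3 h 1644. Control and OGD/R 1.5 h shared 236 of them, or 17.4% of the control sites and 22.2% of the others, and control and OGD/R 3 h shared 189, or 14.0% and 11.5%. OGD/R 1.5 h and OGD/R 3 h shared 190, or 17.9% and 11.6%. The first and second of these overlaps rest on the same control libraries. Among sites without a neighbour within 10 nt, 11.6% of the control sites were found in OGD/R 1.5 h and 6.86% in OGD/R 3 h. Among sites in all 3 libraries of a group these shares were 11.7% and 12.2%, so the order of the treated groups turned. Sites listed in control alone numbered 998, of which 425 were in all 3 of its libraries, those in OGD/R 1.5 h alone 708 with 228, and those in OGD/R 3 h alone 1335 with 852. In all 3 groups 70 sites were listed.

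Between libraries of 1 group 46.4% to 75.6% of the 5' UTR sites found in either library were found in both. The OGD/R 3 h pairs lay highest, at 70.2% to 75.6%, then the control pairs at 55.3% to 59.2% and the OGD/R 1.5 h pairs at 46.4% to 49.6%. Between libraries of different groups the share was 4.73% to 9.43%. In the CDS pairs within a group shared 25.8% to 36.7% and pairs between groups 6.14% to 10.7%, and in the 3' UTR 28.3% to 41.7% and 12.2% to 17.9%. Sites in the 5' UTR thus recurred more within a group than sites of the other regions, and no more between groups. Of all 5' UTR sites 1314 (37.4%) were listed in 1 library and 1546 (44.0%) in exactly 3.

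**Figure D3:**
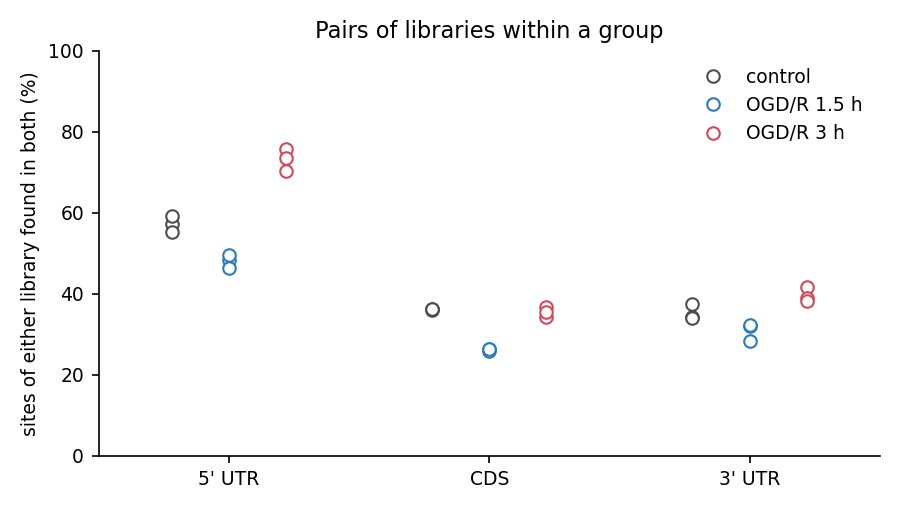
Percent of the sites of either library that both libraries list, for each pair of libraries within a group, by region of the mRNA. The 5' UTR pairs lie between 46.4% and 75.6%, above every pair of the CDS and the 3' UTR.

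Genes were shared more than sites. Over the unions 471 genes had a 5' UTR site in control, 426 in OGD/R 1.5 h and 486 in OGD/R 3 h, and 189 had one in all 3 groups. Control and OGD/R 1.5 h shared 266 genes, or 56.5% and 62.4% of each, and control and OGD/R 3 h shared 240, or 50.96% and 49.4%. OGD/R 1.5 h and OGD/R 3 h shared 259, or 60.8% and 53.3%. Genes with all of their sites in control alone numbered 154, those with all in OGD/R 1.5 h alone 90 and those with all in OGD/R 3 h alone 176. Of the 387 genes with sites in at least 2 groups, 159 had no single site in common between their groups. In these genes the 5' UTR had listed sites in more than 1 group, but no cytosine was listed in more than 1 group. A cytosine that is not listed can still be methylated, so different marking was not shown.

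The sites listed in all 9 libraries number 14, and their scores show how far a shared site can differ between groups. The site of Ctnnd1, which codes for the cell adhesion protein p120-catenin, lies on chromosome 2 at 84650520, 327 nt before the start codon. Its scores were 1000, 956 and 515 in control, then 652, 881 and 657 in OGD/R 1.5 h and 46, 119 and 124 in OGD/R 3 h. The first 2 groups overlap, and all 3 libraries of OGD/R 3 h lie below them. The mean log2 change from control of -3.15 includes 1 control score at the cap, so the fall is at least this large.

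The site of Apob, the main protein of chylomicrons, lies on chromosome 12 at 7977733, 46 nt before the start codon. It scored 136, 843 and 1000 in control, then 483, 714 and 653 in OGD/R 1.5 h and 111, 172 and 370 in OGD/R 3 h, and control overlaps both other groups. The site of Ppp3ca, the catalytic subunit of the phosphatase calcineurin, lies on chromosome 3 at 136670277, 567 nt before the start codon. It scored 761, 142 and 147, then 656, 656 and 301, then 52, 54 and 33, and OGD/R 3 h lies below both other groups. The site of Prr15, a proline-rich protein, lies on chromosome 6 at 54327015, 436 nt before the start codon, and scored 386, 452 and 197, then 148, 63 and 355, then 40, 17 and 19. It too was lowest in every OGD/R 3 h library, with a mean log2 change from control of -3.73.

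The site of Tbc1d10a, which activates the GTPase function of Rab proteins, lies on chromosome 11 at 4186881. It is the one nearest to a transcript start among the 14, at 48 nt, and it lies 10 nt before the start codon of RefSeq, while GENCODE places it in a CDS. Its scores were 44, 612 and 297, then 674, 984 and 278, then 103, 219 and 515, with overlap of all groups. The site of Rps3, a protein of the small ribosomal subunit, lies 7 nt before the start codon on chromosome 7 at 99483628 and scored 82, 60 and 173, then 182, 131 and 437, then 36, 45 and 126. OGD/R 1.5 h lies above OGD/R 3 h there, and control overlaps both.

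The nearest to a start codon is the site of Gna11, a G protein alpha subunit, 2 nt before it on chromosome 10 at 81544929. It scored 2, 7 and 2 in control, then 4, 9 and 19 in OGD/R 1.5 h and 26, 8 and 15 in OGD/R 3 h. The OGD/R 3 h libraries lie above control, and OGD/R 1.5 h overlaps both. The others lie in Hnrnpab, an RNA-binding protein, Ano6, a phospholipid scramblase, Atp1b1, a subunit of the sodium pump, Naa50, an N-terminal acetyltransferase, Arf6, a small GTPase of membrane traffic, Sec23a, a coat protein of vesicles leaving the endoplasmic reticulum, and in 1 more gene. Scores of these named sites ranged from 0 in an OGD/R 1.5 h library at Arf6 to 134 at Naa50.

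**Figure D4:**
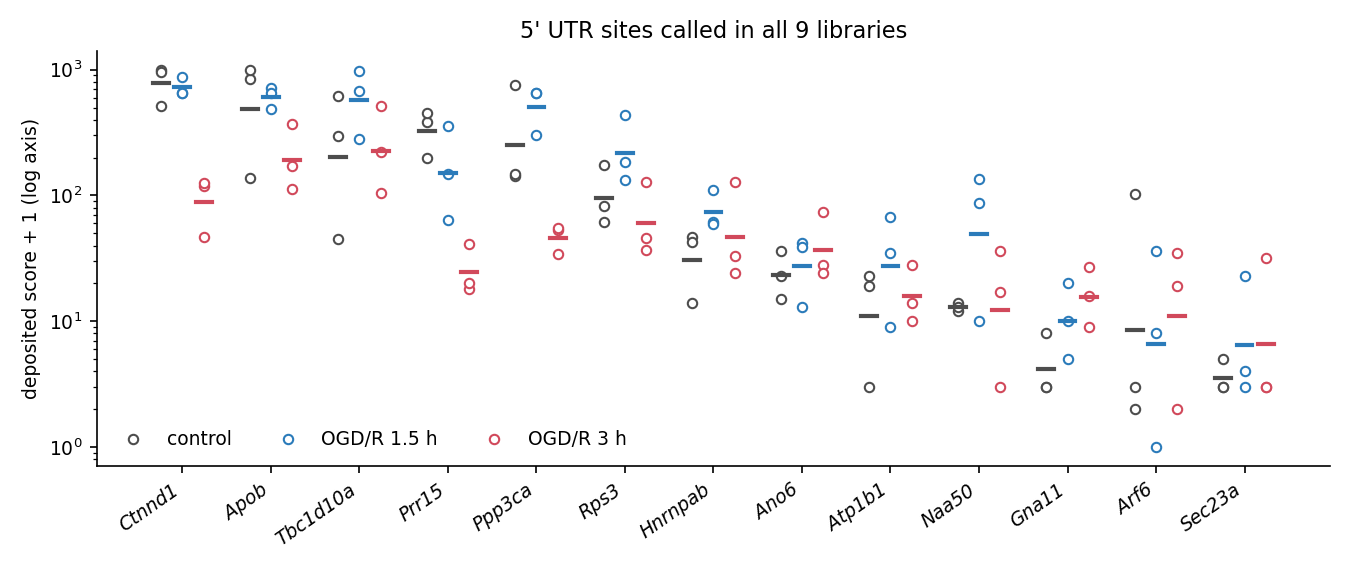
Deposited score plus 1 on a log axis for 13 of the 14 5' UTR sites listed in all 9 libraries, by gene and group, with points for libraries and bars for the geometric mean. The OGD/R 3 h points lie below those of the other groups in Ctnnd1, Ppp3ca and Prr15.

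Scores of the same site could be compared where all 6 libraries of a comparison list it. For OGD/R 1.5 h against control there were 71 such 5' UTR sites. The score ranges of the groups did not overlap at 11 sites, with OGD/R 1.5 h above control at 5 (7.04%) and below it at 6 (8.45%), against 21.8% higher and 9% lower among all 689 sites of the series in all 6 libraries. For OGD/R 3 h against control there were 74, with 11 higher (14.9%) and 8 lower (10.8%), against 30% and 8.62% of 557. The median over the 5' UTR sites of the mean log2 change, computed on the score plus 1, was 0.00 and -0.14 in these comparisons, beside 0 and 0.20 over all such sites. For OGD/R 3 h against OGD/R 1.5 h there were 55, with 2 higher and 8 lower, against 24.3% and 12.6% of 617. With GENCODE transcripts, a setting chosen after seeing the data, 15 of 80 sites (18.8%) were higher and 5 lower in OGD/R 1.5 h than in control, and 21 of 84 (25%) were higher and 8 lower in OGD/R 3 h. How the 5' UTR shares compare with those of all sites thus depends on the annotation, and nothing is read from them.

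Leaving out any 1 library raised the count for OGD/R 1.5 h by over 1.5 times. Without control replicate 1, 2 or 3 it was 19, 17 and 20 in place of 11, and without OGD/R 1.5 h replicate 1, 2 or 3 it was 20, 24 and 19. With 2 libraries a range is narrower and fewer listings are needed, so these counts are larger by construction.

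Among sites higher in OGD/R 1.5 h the largest changes were in Ggt1, which codes for the glutathione-cleaving enzyme gamma-glutamyltransferase, in Frk, a tyrosine kinase, and in Adh1, an alcohol dehydrogenase. The Ggt1 site on chromosome 10 at 75573633 scored 2, 1 and 1 in control and 23, 27 and 38 in OGD/R 1.5 h, a mean log2 change of 3.70, and it was listed in 2 OGD/R 3 h libraries, with 18 and 9. The changes were 3.60 in Frk and 3.25 in Adh1, whose sites no OGD/R 3 h library lists. The largest differences in the other direction were in Tbc1d10a at 4186877, with 40, 46 and 32 in control and 1, 1 and 5 in OGD/R 1.5 h, a change of -3.79, in Map2k1, the kinase MEK1, with -2.99, and in St14, a membrane serine protease, with -2.82. The Tbc1d10a site, which GENCODE also places in a CDS, lies 4 nt upstream of the one shared by all libraries. At that shared site the scores of control and OGD/R 1.5 h overlap.

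In OGD/R 3 h the site of Prr13, a proline-rich protein, was the furthest above control by deposited score, with 2, 3 and 2 in control and 436, 1000 and 834 in OGD/R 3 h. The mean log2 change of 7.76 includes 1 score at the cap and is a lower bound. The site was followed by Epcam, an adhesion protein of epithelia, with 5, 10 and 2 in control and 186, 70 and 36 in OGD/R 3 h, and by Cyba, a subunit of the NADPH oxidase of phagocytes, with 99, 31 and 51 and then 643, 634 and 697. The last lies 21 nt before the start codon. Epcam belongs to the intestinal marker list and Cyba to that of neutrophils and bone marrow. Furthest below control by deposited score were Pafah1b1, then Prr15 and then Slc5a1. Pafah1b1, a regulator of dynein that neuronal migration needs, had 421, 115 and 508 in control and 2, 3 and 10 in OGD/R 3 h. Slc5a1, the sodium-dependent glucose transporter of the gut and kidney, had 124, 100 and 174 and then 17, 18 and 4. No OGD/R 1.5 h library lists the sites of Prr13, Epcam, Cyba, Pafah1b1 or Slc5a1.

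Among sites of 1 group, the highest scores of OGD/R 3 h lay at the top of the scale. Many sites tie at a median of 1000, and the rule takes the first 5 of them by gene symbol, so they are not the highest of the group. They all lie in Anxa1, a calcium-dependent phospholipid-binding protein, 51 to 66 nt before the start codon and 8 to 23 nt from the transcript start. All 5 scored 1000 in each OGD/R 3 h library. Sites with 1000 in all 3 libraries of a group numbered 68 in 13 genes for OGD/R 3 h, 7 in 2 genes for OGD/R 1.5 h and 0 for control. In OGD/R 1.5 h the 2 genes were Rabggtb, a subunit of the enzyme that attaches a lipid to Rab proteins, with 6 and the ribosomal protein gene Rpl21 with 1. In OGD/R 3 h Hbb-bs had 14, Rabggtb 11, H1f3 8, and Anxa1, Hbb-bt and S100a9 6 each. Dusp1, H1f2, Rpl21, S100a8 and Tmsb4x had 3 each, and Ngp and Rhob 1 each. Of these Hbb-bs and Hbb-bt are on the erythroid marker list, and S100a9, S100a8 and Ngp on that of neutrophils and bone marrow.

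The highest sites of control alone scored lower. They were a second site of Ctnnd1, at 84650514, with 232, 477 and 500, and sites of Dynll2, a dynein light chain, with 207, 746 and 119, Klf5, a transcription factor of proliferating epithelia, with 157, 194 and 91, Lmtk2, a kinase, with 39, 176 and 297, and Slc27a4, a fatty acid transport protein, with 164, 91 and 180. The second Ctnnd1 site lies 6 nt from the one that all 9 libraries list. In OGD/R 1.5 h alone the highest were Tle3, a transcriptional corepressor, with 77, 64 and 58, Zc3h11a, a zinc finger protein of mRNA export, with 4, 63 and 77, Lgr4, a receptor for R-spondins, with 2, 52 and 192, and 2 sites of the lysosomal membrane protein Lamp1, with 3, 112 and 56 and with 52, 13 and 74.

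The sites were spread unevenly over genes. A single site was found in 231 of the 807 genes, while 101 genes with over 8 sites held 1545 sites, or 43.9%. The 10 genes with most sites held 336, or 9.56%. The tenth place is a tie at 24 sites of Ppp3ca, Spint2 and Tob1, and Ppp3ca was taken by gene symbol. Slc6a8, the creatine transporter, had 53 sites over its 656-nt 5' UTR, of which 16 were listed in control, 9 in OGD/R 1.5 h and 33 in OGD/R 3 h. Its libraries listed 10, 11 and 12, then 5, 7 and 5, then 24, 22 and 27, and the groups did not overlap.

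Atp1b1 had 49 sites, with 23, 20 and 23 in the 3 groups, but its libraries listed 18, 19 and 20, then 15, 13 and 11, then 19, 18 and 21, so that each OGD/R 1.5 h library lay below all others. Fth1, the heavy chain of the iron store ferritin, had 36 sites, none in control, 23 in OGD/R 1.5 h and 20 in OGD/R 3 h. Atp13a3, a transport ATPase, had 36, with 2, 9 and 28, and Tmsb4x, which binds actin monomers, had 26, with 0, 4 and 26. Ppp3ca had 24, with 5, 9 and 19. In all 3 libraries Fth1 had 2 sites in each treated group, Atp13a3 had 0 in OGD/R 1.5 h and 1 in OGD/R 3 h, and Ppp3ca had 3, 2 and 2 in the groups, while all 26 of Tmsb4x were listed in all 3 libraries of OGD/R 3 h.

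Hnrnpab had 29 sites with 15, 11 and 11 in the groups, and Klf5 had 29 with 15, 9 and 7. Slc27a4 had 25 with 12, 8 and 7. Lgr4 had 29 with 8, 15 and 12. Of the genes tied with Ppp3ca, Spint2 had 12, 9 and 6 in the groups and Tob1 had 4, 12 and 10.

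In a few 5' UTRs a large share of the cytosines was listed. These genes were chosen after their values were seen, as those in which at least 25% of the cytosines of the 5' UTR, and at least 3, were sites in all 3 libraries of a group. Control had none, OGD/R 1.5 h had Rabggtb, with 11 of 22 cytosines, and OGD/R 3 h had 12 genes. The 12 genes held 137 of the OGD/R 3 h sites found in all 3 libraries, or 13.02%. Hbb-bs, a beta chain of haemoglobin, had 14 of 15 cytosines listed, or 93.3%, all with a score of 1000 in all 3 libraries, and Hbb-bt, the other adult beta chain, 6 of 12. The linker histone genes H1f3 and H1f2 had 9 of 12 and 8 of 14, Rabggtb 14 of 22, Cyba 11 of 18 and Tmsb4x 26 of 50. S100a9, a calcium-binding protein of neutrophils, had 7 of 15, Actb, the cytoplasmic beta-actin, 17 of 45, the chaperone gene Calr 13 of 38, and Anxa1 and Rab1b, a GTPase of early secretory traffic, 6 of 19 each.

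Scores in these 5' UTRs were not alike. The median over their sites was 1000 in Hbb-bs, Hbb-bt, H1f3, H1f2, Rabggtb, S100a9 and Anxa1, and it was 697 in Cyba, 262 in Calr, 52 in Tmsb4x, 26 in Actb and 4 in Rab1b. The printed window of Hbb-bs has all 10 of its cytosines as sites and each with 1000 in all 3 libraries, while the window of Tmsb4x has all 13 as sites and none with 1000 in all 3. In the other groups these genes carried few sites, with at most 2 in the control union, in Cyba and in Rab1b, and at most 4 in OGD/R 1.5 h apart from Rabggtb. The markers Hbb-bs and Hbb-bt of the erythroid list and Cyba and S100a9 of the neutrophil list are among the 12, and the part of cell types in the density of sites was not tested.

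**Figure D5:**
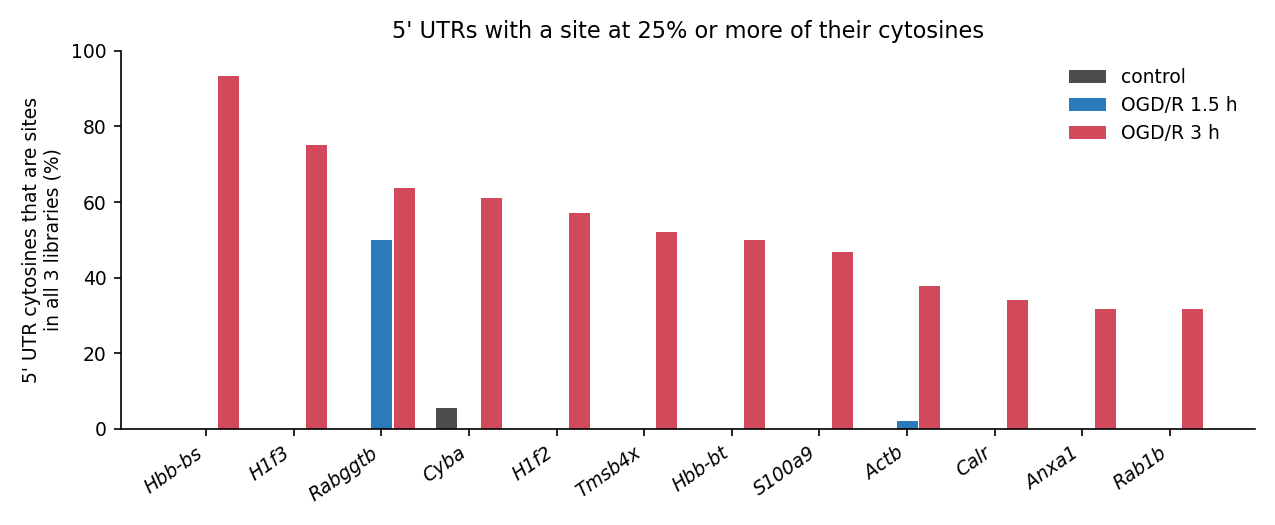
Percent of the cytosines of the 5' UTR that are sites in all 3 libraries of a group, as bars by group, for the 12 genes with at least 25% in OGD/R 3 h. Of the other groups OGD/R 1.5 h reaches 25% in Rabggtb alone and control in none.

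Runs of neighbouring sites, each within 10 nt of the next, also set OGD/R 3 h apart. Runs of 5 or more sites numbered 7.33 ± 1.15 per library in control, 5.33 ± 1.15 in OGD/R 1.5 h and 34.7 ± 3.51 in OGD/R 3 h (± SD over 3 libraries). They held 4.42 ± 0.955%, 4.47 ± 0.758% and 21.0 ± 0.541% of the 5' UTR sites. The longest lay in Tmsb4x in each OGD/R 3 h library, with 20 sites over 51 nt. In each library of the other groups the longest run had 5 to 7 sites.

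The gene lists are described by the number of annotated members with a 5' UTR site, beside 3.72% over all annotated genes. Genes differ in how much they are expressed and so in their chance of being listed, which was not accounted for, and nothing is called particular to a list. The solute carriers, which move small molecules across membranes, had 25 of 374 members with 165 sites, the most of any list. Slc6a8 with 53 sites, Slc27a4 with 25 and Slc5a1 with 16 led them, and the list had 66 sites in control, 44 in OGD/R 1.5 h and 71 in OGD/R 3 h. These counts include Slc9a3r1, which is not itself a carrier, with 3 sites, of which 0, 1 and 2 were listed in the groups. The heterogeneous nuclear ribonucleoproteins and SR proteins, which bind and splice pre-mRNA, had 10 of 32 members with 59 sites, and 22, 26 and 22 in the groups. Hnrnpab led with 29 sites, followed by the splicing factor Srsf1 with 7.

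Among genes of translation, 6 of 84 cytosolic ribosomal proteins had 23 sites and 8 of 71 translation factors had 36. The sites of ribosomal protein genes were about evenly divided over the groups, with 15, 18 and 14, and 12 of the 23 lay in Rpl21. The sites of translation factors numbered 5 in control, 7 in OGD/R 1.5 h and 26 in OGD/R 3 h. Eif4g1, the scaffold of the cap-binding complex, had 14, of which 2, 1 and 12 were listed in the groups, and Eif4ebp2, an inhibitor of the cap-binding protein, and Eif6 had 6 each. Of 22 genes known for upstream open reading frames or the integrated stress response, Ppp1r15b alone had 5' UTR sites, with 5, of which 2 were listed in control, 0 in OGD/R 1.5 h and 3 in OGD/R 3 h.

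Chaperones of the heat shock, DnaJ and CCT families, a list that leaves out Calr, had 10 of 84 members with 43 sites, of which 18 lay in Hsp90b1, the HSP90 of the endoplasmic reticulum, with 11, 9 and 11 in the groups. The proteasome had 1 of 51, Psmd4 with 1 site. Of the nuclear-encoded genes of the respiratory chain and ATP synthase 8 of 96 had 43 sites, with 10, 13 and 24 in the groups, led by the ATP synthase genes Atp5e with 10 and Atp5g3 with 9. Of 27 genes of hypoxia and glycolysis, Vegfa, the growth factor of blood vessels, had 5 sites, with 5, 2 and 1 in the groups, and the glycolytic enzyme gene Pkm had 1, in OGD/R 3 h. Of 14 m5C enzymes and readers the reader Ybx1 had 9 sites, with 5, 3 and 4 in the groups.

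Of the marker lists of other cell types, those of intestinal epithelium and of neutrophils and bone marrow had the highest shares of members with a site among all lists described. Of the 19 intestinal markers 7 had 24 sites, with 14 in control, 7 in OGD/R 1.5 h and 8 in OGD/R 3 h. They were led by Pigr, the receptor that carries antibodies across epithelia, with 7, Epcam with 6 and Apoa1, the main protein of high-density lipoprotein, with 5. The 2 erythroid markers, Hbb-bs with 14 sites and Hbb-bt with 6, had all 20 of their 5' UTR sites in OGD/R 3 h. Of the 11 neutrophil and bone marrow markers 4 had sites, of which Cyba had 11, S100a9 7, S100a8 3 and Ngp 1, all 22 of which were listed in OGD/R 3 h, while control listed 2 of them and OGD/R 1.5 h listed 0. Of the smooth muscle and fibroblast markers Acta2, smooth muscle actin, had 2 sites. The astrocyte, oligodendrocyte, microglia and neuron markers had 0.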

How the data were processed

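The authors sequenced bisulfite-converted and mock-treated RNA of 3 groups, trimmed reads with cutadapt 1.9.3 (their processing notes also name CASAVA 1.8, and STAR was used for the input library), used meRanGh for alignment to mm10 and ran meRanCall on each library to call sites. The 9 deposited site lists were used. The 9 mock libraries have no list of their own and were not analysed. The deposited score is a whole number derived by the authors from the call score of meRanCall and capped at 1000, with no correction for depth. No counts are given, which leaves the depth of every library unknown, and no counting interval could be given.

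Sites were placed on RefSeq protein-coding transcripts of mm10 (84667 transcripts), and distances were counted along the spliced transcript with the longest coding sequence. The background is every cytosine in the 5' UTRs of transcripts with a site. Letters were read from mm10, and folding was predicted with ViennaRNA RNAplfold 2.7.2 in windows of 150 nt with pairs spanning at most 100 nt. Python 3.11.15, numpy 2.4.6, pysam 0.24.0, samtools 1.23.1 and matplotlib 3.10.9 were used, and the placement and counting code was tested on simulated data.

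The sites named are the 10 genes with most 5' UTR sites, every site listed in all 9 libraries (in full for the 6 with the highest median score, and for those nearest to the transcript start and the start codon), the 5 sites with the highest median score among those in all 3 libraries of 1 group and in no other, the 3 largest differences in each direction from control among sites in all 6 libraries whose scores do not overlap, and the list members with most sites. Nothing on chromosome 18 is named as a site. The members and lists were chosen with earlier results of these data known. Muc2, Ahsp and Nsun1 of the lists are not in the annotation. Mean log2 changes use the score plus 1. Alternatives were a score of at least 10, isolated sites, curated transcripts, sites in at least 2 or in all 3 libraries, the smallest distance over transcripts, leaving out scores at the cap and leaving out each library, and 4 chosen after seeing the data.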

Additional observations from a re-analysis of the deposited data

Results flagged for a closer look

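In 6 measures of the 5' UTR sites every OGD/R 1.5 h library lay on one side of all control libraries and every OGD/R 3 h library on the other side. The log2 ratio to control was -0.49 and 0.47 for the number of sites, -0.23 and 0.11 for the number of genes and -0.26 and 0.37 for the sites per gene. The share of mRNA sites in the 5' UTR differed from control by -4.98 and 2.90 percentage points, the share of sites with a neighbour within 10 nt by -16.9 and 4.27 points, and the median distance to the transcript start by 10.3 and -9.33 nt. The ratio of site numbers in OGD/R 1.5 h was -0.0099 among sites without a neighbour within 10 nt, less than the spread of the libraries. Without the 12 genes dense in sites, chosen after seeing the data, the ratios of OGD/R 3 h were 0.31 for sites and 0.070 for genes. The ratio of genes was -0.032 and 0.28 over genes with an mRNA site in every group, another setting chosen after seeing the data. With the same setting the share in the 5' UTR differed by 0.966 points in OGD/R 3 h, less than the spread of the libraries. Among sites without a neighbour within 10 nt that share differed by -0.659 points in OGD/R 1.5 h, also less than the spread. The value for the transcript start changed sign under 3 other settings, so it gives no direction for OGD/R 3 h. Both comparisons share the control libraries, and the difference between them was not tested.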

How the results depend on the processing

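Of 148 values recomputed with another choice for the 18 results, 87 moved by less than the spread of the libraries or, for the number of sites whose scores do not overlap, by at most 1.5 times, 58 moved by more and 3 reversed their sign; where a value moved or reversed, the cause was not tested. Differences are given against control. The median distance to the transcript start in OGD/R 3 h reversed to 14.7 nt with isolated sites, to 8.33 nt without the 12 dense 5' UTRs and to 3.83 nt with the 839 genes that have an mRNA site in every group. It was -29 nt with scores of at least 10, -14.8 nt with sites in at least 2 libraries, -2 nt with GENCODE and -4.83 nt without markers of other cell types. In OGD/R 1.5 h it was 16.7, 6, 5.33, 21 and 14.2 nt with isolated sites, sites in at least 2 libraries, the smallest distance, GENCODE and genes in every group. The distance to the start codon was -1.67 nt in OGD/R 1.5 h with GENCODE, and in OGD/R 3 h -26.7, -13.2, -25.8, -17.7 and -7.67 nt with scores of at least 10, isolated sites, sites in at least 2 libraries, GENCODE and without dense 5' UTRs. The log2 ratio of site numbers in OGD/R 1.5 h was -0.0099 with isolated sites, -0.64 with sites in at least 2 libraries and -0.40 with genes in every group. In OGD/R 3 h it was 0.74 with scores of at least 10, 0.32 with isolated sites, 0.60 with sites in at least 2 libraries and 0.31 without dense 5' UTRs. The log2 ratio of genes in OGD/R 1.5 h was -0.41, -0.015, -0.35 and -0.032 with scores of at least 10, isolated sites, sites in at least 2 libraries and genes in every group, and in OGD/R 3 h it was 0.26 with scores of at least 10 and 0.28 with genes in every group. The log2 ratio of the median score in OGD/R 3 h was 0.20 with isolated sites and 0.28 with genes in every group. The share of mRNA sites differed by -0.659 points in OGD/R 1.5 h with isolated sites and in OGD/R 3 h by 5.49 points with sites in at least 2 libraries, and by as little as 0.966 points with genes in every group. The share in CG differed in OGD/R 1.5 h by -4.97, -3.34 and -2.02 points with GENCODE, without dense 5' UTRs and with genes in every group. In OGD/R 3 h it differed by -9.14, -8.58, -6.36, -8.60, -5.95 and -6.37 points with scores of at least 10, curated transcripts, sites in at least 2 libraries, GENCODE, without dense 5' UTRs and with genes in every group. The share of control sites found in OGD/R 1.5 h was 11.6%, 16.4%, 11.7%, 18.3% and 21.8% with isolated sites, curated transcripts, sites in all 3 libraries, GENCODE and genes in every group. For OGD/R 3 h it was 6.86%, 13.4%, 12.2%, 15.2%, 13.8% and 19.0% in the same order, with the value without dense 5' UTRs before the last. Sites whose scores do not overlap numbered 3, 1 and 20 in OGD/R 1.5 h and 10, 2 and 29 in OGD/R 3 h with scores of at least 10, isolated sites and GENCODE. GENCODE, dense 5' UTRs, markers and genes in every group are settings chosen after seeing the data. Leaving out each library in turn reversed none of 108 values and moved 16 by the same measure. The share of control sites ranged from 15.2% to 18.3% for OGD/R 1.5 h and from 12.2% to 14.5% for OGD/R 3 h, and the sites in OGD/R 1.5 h whose scores do not overlap from 17 to 24 and in OGD/R 3 h from 24 to 27. No paired analysis was possible because the labels pair no control library with a treated one. The depth is unknown, so a site that is not listed cannot be told from one that was not covered, and the starts of transcripts come from annotation.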
